A study of Mus musculus with 6 samples.

Results

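The 33 genes described here cover sterol synthesis and its control by SREBP and LXR. They were chosen by name, with earlier results of these data known. Matched to the count table by Ensembl identifier, all 33 were found among its 56941 genes. They comprise 18 enzymes of sterol synthesis, 6 regulators of SREBP, 4 genes of fatty acid synthesis and desaturation, and 5 genes of the LXR branch. All 33 passed the filter on low counts that left 18562 genes for the test.

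RNA was sequenced from primary endothelial cells of mouse lung in 2 groups of 3 libraries. The EC-KO libraries are labelled with a knockout of Fundc1 (FUNDC1-KO, EC-KO in the titles), and the FL libraries with a floxed gene (FUNDC1-FLOX). Fundc1 encodes a mitophagy receptor of the outer mitochondrial membrane, and the series title names pulmonary hypertension. The titles call the cells PAECs, while the protocol describes cells taken from whole mouse lungs with magnetic beads, freed of dead cells and kept in endothelial medium with serum. The labels name neither the driver of the deletion nor the antibody on the beads, the time in medium or the age of the mice. No label says that libraries of a group came from separate animals, so the p-values cover the spread between libraries alone, and that spread may be technical.

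Cells make cholesterol from acetyl-CoA through mevalonate, squalene and lanosterol. When membrane sterol is low, the carrier SCAP takes the membrane-bound SREBP proteins to the Golgi, where proteases release factors that switch on these enzymes, and INSIG proteins hold SCAP back when sterol is plentiful. SREBP2 acts mainly on sterol genes and SREBP1 mainly on fatty acid genes. LXR receptors sense oxysterols and raise the export pumps ABCA1 and ABCG1. In the lung, alveolar type II cells make surfactant lipid, and macrophages take up and export cholesterol.

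Total counts were 29723104 to 33474398 per library in EC-KO and 26658998 to 34306962 in FL. Levels are given as CPM, the usual scaling of counts to library size, here with TMM factors. Changes are log2 fold changes, EC-KO over FL, each with a standard error (SE). A gene was called at an adjusted p below 0.05 in edgeR's quasi-likelihood test, adjusted over all genes tested. Fundc1 stood at 14.1, 18.2 and 12.8 CPM in EC-KO 1, 2 and 3, against 25.1, 32.0 and 30.7 CPM in FL 1, 2 and 3 (-0.96 ± 0.19 SE, adjusted p = 0.00796 in edgeR). The count of a gene also takes in exons outside a deleted part and RNA of every cell type in the isolate. The part of either in the Fundc1 level was not tested.

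The isolates held RNA of several lung cell types, in amounts that moved with the groups. Of 20 pan-endothelial markers 12 were called lower, and their summed level was 4411 to 8845 CPM in EC-KO against 11347 to 15771 CPM in FL. Of 16 epithelial markers 14 were called higher, with sums of 11239 to 16797 CPM in EC-KO against 2002 to 4595 CPM in FL. Of 15 macrophage and monocyte markers 14 were called lower, with sums of 2510 to 3553 CPM in EC-KO against 6058 to 9958 CPM in FL. Of 12 fibroblast markers 7 were called higher, with sums of 1165 to 2441 CPM in EC-KO against 924 to 1174 CPM in FL. Of 6 markers of lipid-laden cells 1 was called higher (Adipoq) and 2 lower (Cidec and Fabp4). Their sums were 188 to 338 CPM in EC-KO against 375 to 480 CPM in FL. Of 10 smooth muscle and pericyte markers 8 were called lower. Of 9 neutrophil and mast cell markers 6 were called lower and 1 higher, and of 9 erythroid and platelet markers 6 were called higher. Lymphocyte markers (3 of 10 called higher, 1 lower) and mesothelial markers (2 of 6 called higher) moved less. None of these markers was without counts. EC-KO 2 stood apart from EC-KO 1 and 3 on the second axis of variation (16.8% of variance). It had the highest endothelial, epithelial, macrophage and fibroblast sums of its group and the lowest lymphocyte sum (371 CPM, against 808 CPM in EC-KO 1 and 686 CPM in EC-KO 3). The part of these cell types in the lipid gene results was not tested, and in bulk RNA fewer cells of a type and less RNA per cell cannot be told apart.

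**Figure D1:**
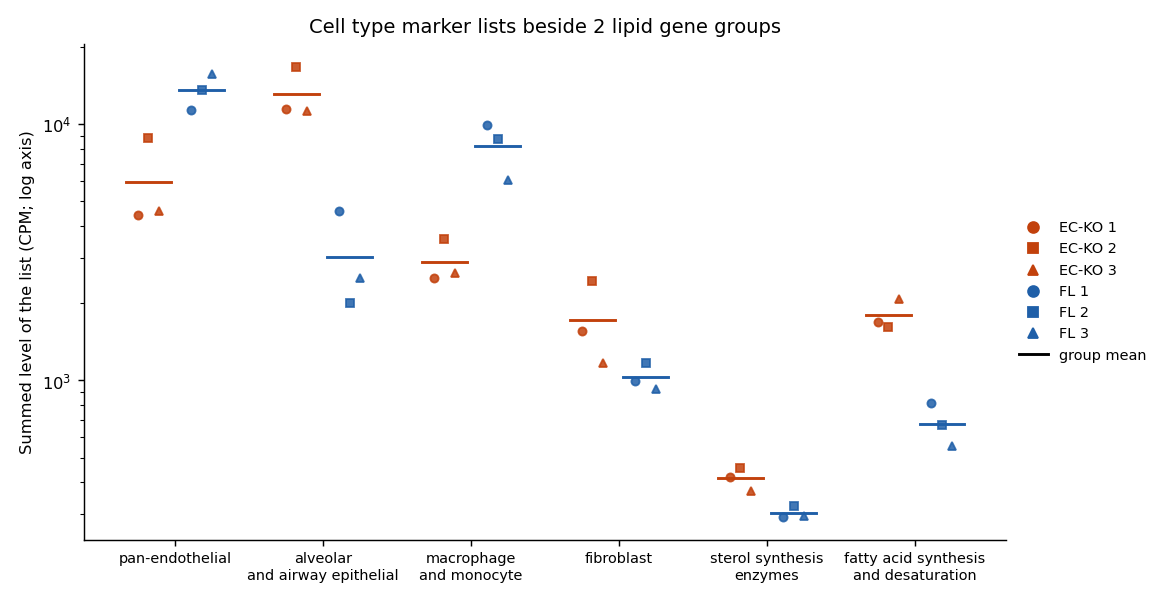
Summed level (CPM, log axis) of 4 cell type marker lists and of 2 groups of lipid genes in each library, with EC-KO left of FL; points are libraries and bars are group means. Endothelial and macrophage sums were lower and epithelial sums higher in every EC-KO library than in any FL library, and both lipid gene groups were higher, at 369 to 455 CPM against 293 to 323 CPM for the sterol enzymes.

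Across the 33 genes, 12 were called higher and 4 lower in EC-KO, and 17 did not pass the test. Over all genes tested 27.1% were called, 13.5% higher and 13.5% lower. The median log2 fold change of the 33 genes was 0.40, against 0.03 over all genes tested. EC-KO and FL did not overlap in 21 of the 33 genes, beside 45.4% of all genes tested. Because the genes were chosen with earlier results of these data known, their shares beside those of all genes are descriptive only. Of the 16 called genes, 8 were called whichever library was left out, namely Fdft1, Sqle, Lss, Cyp51, Dhcr7, Srebf1, Fasn and Scd1. Against a change of at least 1.5 times (glmTreat), Fasn and Scd1 were the 2 members called.

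**Figure D2:**
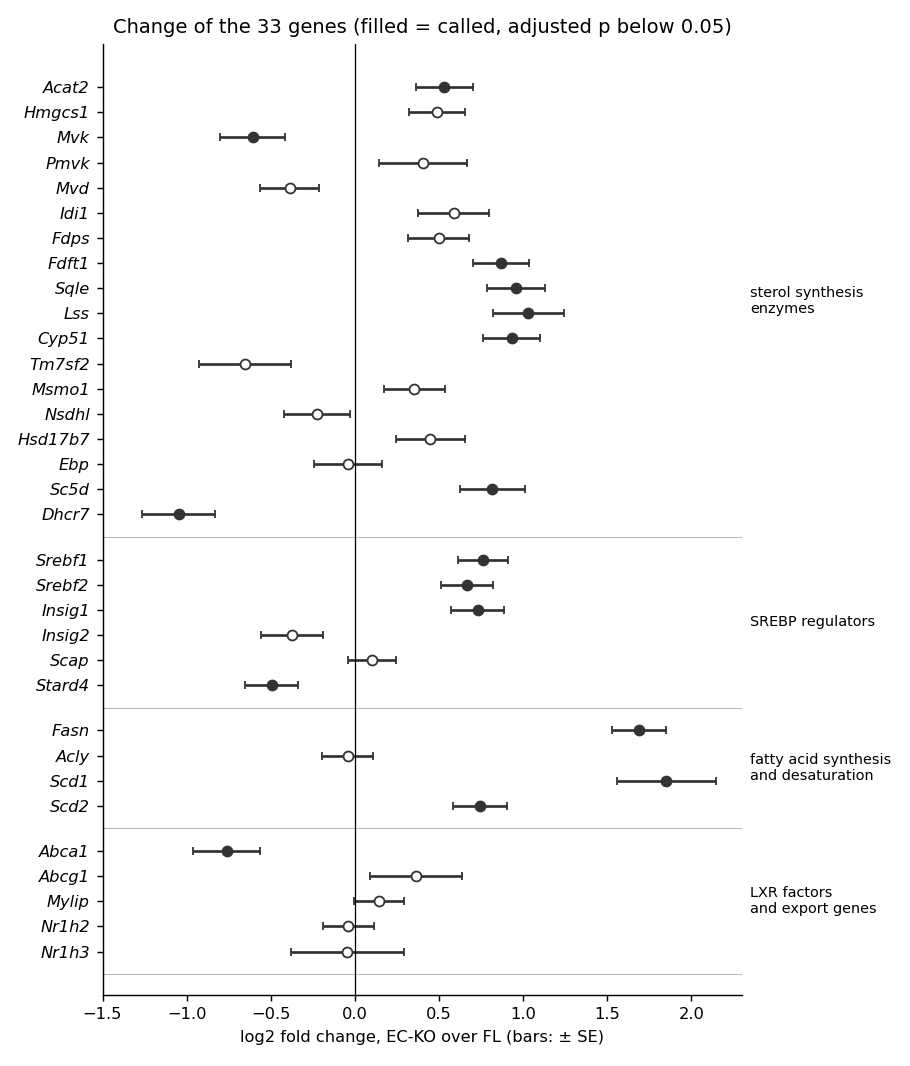
Log2 fold change of EC-KO over FL for the 33 genes, grouped by role, with bars of ± SE and filled points for called genes. The largest rises were those of Scd1 (1.85) and Fasn (1.69) and the largest fall that of Dhcr7 (-1.05).

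Promoter sequences are shown for 6 members, so that genes with opposite changes can be set side by side. They were taken from RefSeq, build GRCm38.p6, which may differ from the build of the count table, and cover 250 bases before to 50 bases after the annotated start, 5′ to 3′. Of the 33 members 26 matched the RefSeq table used here, and those shown had a single start in it. The others were Abcg1, Fdft1, Fdps, Scd1, Scd2, Sqle and Stard4. Cyp51, Lss and Fasn were called higher, Mvk and Abca1 lower, and Hmgcs1 missed the threshold. Capitals mark matches, on either strand, to the sterol element TCACNCCAC, the NF-Y box CCAAT and the E-box CACGTG.
Cyp51, chr5:4104648-4104947, minus strand: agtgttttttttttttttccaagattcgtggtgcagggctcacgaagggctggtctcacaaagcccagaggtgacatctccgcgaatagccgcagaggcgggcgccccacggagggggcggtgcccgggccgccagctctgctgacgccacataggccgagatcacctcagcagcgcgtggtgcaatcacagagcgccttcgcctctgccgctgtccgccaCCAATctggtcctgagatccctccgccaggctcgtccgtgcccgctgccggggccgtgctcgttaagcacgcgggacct
Lss, chr10:76531355-76531654, plus strand: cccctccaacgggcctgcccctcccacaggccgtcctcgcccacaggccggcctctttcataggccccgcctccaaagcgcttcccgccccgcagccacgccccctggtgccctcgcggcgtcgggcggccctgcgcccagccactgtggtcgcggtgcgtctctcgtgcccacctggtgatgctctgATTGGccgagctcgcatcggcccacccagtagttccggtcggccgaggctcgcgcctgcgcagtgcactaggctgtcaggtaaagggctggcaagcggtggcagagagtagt
Fasn, chr11:120824498-120824797, minus strand: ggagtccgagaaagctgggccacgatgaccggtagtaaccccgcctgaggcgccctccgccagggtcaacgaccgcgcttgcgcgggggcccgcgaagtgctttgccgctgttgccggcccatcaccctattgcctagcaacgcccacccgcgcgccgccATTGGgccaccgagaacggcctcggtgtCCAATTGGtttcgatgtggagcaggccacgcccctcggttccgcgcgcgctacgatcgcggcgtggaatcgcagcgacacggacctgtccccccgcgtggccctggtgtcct
Mvk, chr5:114444019-114444318, plus strand: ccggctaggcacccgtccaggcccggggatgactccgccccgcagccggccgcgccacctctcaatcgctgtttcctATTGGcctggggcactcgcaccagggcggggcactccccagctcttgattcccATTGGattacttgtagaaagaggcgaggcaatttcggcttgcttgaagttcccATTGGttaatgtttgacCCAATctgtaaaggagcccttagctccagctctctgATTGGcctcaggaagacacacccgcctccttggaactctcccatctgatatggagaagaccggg
Abca1, chr4:53159846-53160145, minus strand: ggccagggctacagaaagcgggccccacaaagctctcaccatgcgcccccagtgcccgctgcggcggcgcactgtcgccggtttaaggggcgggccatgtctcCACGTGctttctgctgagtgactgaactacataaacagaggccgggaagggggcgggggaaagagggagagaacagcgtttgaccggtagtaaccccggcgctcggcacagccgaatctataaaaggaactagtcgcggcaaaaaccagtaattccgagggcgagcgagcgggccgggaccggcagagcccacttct
Hmgcs1, chr13:119690101-119690400, plus strand: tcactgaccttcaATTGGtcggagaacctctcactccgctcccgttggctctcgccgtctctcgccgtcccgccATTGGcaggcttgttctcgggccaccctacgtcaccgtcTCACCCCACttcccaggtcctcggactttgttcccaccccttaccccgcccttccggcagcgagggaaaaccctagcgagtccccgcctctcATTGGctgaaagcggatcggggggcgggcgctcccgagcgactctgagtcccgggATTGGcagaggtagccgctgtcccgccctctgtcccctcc

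The sterol element occurred in 1 of 35 member promoters, that of Hmgcs1, where it began 137 bases before the start, against 1.24% of all 32851 promoters of the same length. The NF-Y box occurred in 22 of the 35 member promoters (62.9%), against 37.4% of all promoters. The Sp1 box GGGCGG, not marked by capitals, occurred in 26 of the 35 (74.3%), against 35.7% of all promoters. The NF-Y box was found in promoters of genes called higher (1 match in Cyp51, 1 in Lss and 3 in Fasn) and of a gene called lower (5 in Mvk). The window of Abca1 held the Sp1 box but no NF-Y box. In Fasn a pair of NF-Y matches on opposite strands overlapped. The E-box occurred in 7 of the 35 member promoters, among them that of Abca1, against 7.15% of all promoters. The direct repeat bound by LXR, with half-sites AGGTCA set 4 bases apart, occurred in 0 member promoters and in 0.0152% of all. These matches describe letters in the windows and were not tested for binding.

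Sterol synthesis enzymes were more often higher than lower in EC-KO, and 4 of the 6 called rises were consecutive enzymes in the middle of the pathway. Of the 18 enzymes 6 were called higher and 2 lower, beside 13.5% of all genes tested in each direction, and the median log2 fold change was 0.47. Their summed level was 419, 455 and 369 CPM in EC-KO 1, 2 and 3, against 293, 323 and 295 CPM in FL 1, 2 and 3. Every EC-KO sum lay above every FL sum.

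The enzymes that carry acetyl-CoA to isoprenoids moved in both directions. Acat2, the cytosolic thiolase of the entry step, stood at 16.5, 18.4 and 16.0 CPM in EC-KO 1, 2 and 3, against 12.3, 11.03 and 11.8 CPM in FL 1, 2 and 3 (0.53 ± 0.17 SE, adjusted p = 0.0434 in edgeR). Its groups did not overlap, but the call was lost when any library was left out, with adjusted p-values of 0.0600 to 0.159. It was also lost without the filter (0.119) and with library sizes that leave out mitochondrial genes (0.0503). Mvk, the kinase of mevalonate, stood at 7.48, 8.18 and 7.73 CPM in EC-KO, against 9.93, 12.3 and 13.3 CPM in FL (-0.61 ± 0.19 SE, adjusted p = 0.0453). It was not called without EC-KO 1 (0.1295), EC-KO 3 (0.107), FL 2 (0.135) or FL 3 (0.1497), nor with upper-quartile (0.0654) or library-size scaling (0.0708) or without the filter (0.0686). Hmgcs1, the HMG-CoA synthase that feeds the pathway, was at 55.6, 69.1 and 49.4 CPM in EC-KO, against 43.2, 39.3 and 41.6 CPM in FL (0.49 ± 0.17 SE, adjusted p = 0.0590).

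Hmgcs1 thus had no overlap between groups and missed the threshold, which it passed with upper-quartile (0.0351) and library-size scaling (0.0271), with a filter of 1 CPM in 3 libraries (0.0435) and in DESeq2 (0.0397). Idi1, the isomerase of the isoprenoid units, was at 0.59 (adjusted p = 0.0667) and Fdps, the farnesyl diphosphate synthase, at 0.50 (0.0722). Both had groups that did not overlap, and both passed with upper-quartile (0.0435 and 0.0454) and library-size scaling (0.0334 and 0.0397), as did Idi1 in DESeq2 (0.0433). The phosphomevalonate kinase gene Pmvk (0.40, adjusted p = 0.281) had overlapping groups, with EC-KO 2 highest at 33.4 CPM. Mvd, the mevalonate diphosphate decarboxylase, was at 12.6, 13.4 and 11.9 CPM in EC-KO, against 15.3, 18.9 and 15.3 CPM in FL (-0.39, adjusted p = 0.131), with no overlap.

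From squalene to the first trimming of lanosterol, the 4 consecutive enzymes in the set all rose. The promoters of Lss and Cyp51 are among the sequences printed. Fdft1, the squalene synthase, stood at 27.8, 32.6 and 26.9 CPM in EC-KO 1, 2 and 3, against 15.5, 17.3 and 15.1 CPM in FL 1, 2 and 3 (0.87 ± 0.16 SE, adjusted p = 0.00625 in edgeR). Sqle, the oxygen-dependent squalene epoxidase, stood at 28.0, 31.1 and 26.3 CPM in EC-KO, against 16.6, 14.5 and 12.9 CPM in FL (0.96 ± 0.17 SE, adjusted p = 0.00493). In both genes the lowest EC-KO library lay well above the highest FL library. Lss, the cyclase that makes lanosterol, stood at 12.4, 13.4 and 14.3 CPM in EC-KO, against 7.47, 7.12 and 5.09 CPM in FL (1.03 ± 0.21 SE, adjusted p = 0.00843). Cyp51, the lanosterol demethylase, stood at 48.7, 47.0 and 38.0 CPM in EC-KO, against 23.2, 25.9 and 21.0 CPM in FL (0.93 ± 0.17 SE, adjusted p = 0.00539). The 4 rises were between 1.83 and 2.04 times, and the stretch was singled out after the values had been seen. Each of the 4 was called whichever library was left out, with adjusted p-values of 0.0440 or less.

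The exons of Fdft1 share 774 bases (18.8% of its length) with Ctsb on the opposite strand, and those of Cyp51 share 166 bases (3.76%) with Akap9. No source used here gives the strand setting of the counting, so reads from these stretches may not be separable. Ctsb averaged 542 CPM in EC-KO and 661 CPM in FL (-0.29, adjusted p = 0.298 in edgeR), and Akap9 averaged 82.3 CPM in EC-KO and 82.1 CPM in FL (0.00, adjusted p = 0.988). Neither neighbour was called.

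After lanosterol the enzymes diverged. Sc5d, the sterol desaturase near the end of the route, stood at 63.5, 43.7 and 56.8 CPM in EC-KO 1, 2 and 3, against 26.6, 36.0 and 30.4 CPM in FL 1, 2 and 3 (0.82 ± 0.19 SE, adjusted p = 0.0155 in edgeR). Dhcr7, the reductase that turns the last precursor into cholesterol, stood at 5.92, 6.96 and 5.38 CPM in EC-KO, against 10.9, 15.4 and 11.4 CPM in FL (-1.05 ± 0.22 SE, adjusted p = 0.00919). Consecutive members of the set at the end of the pathway were thus called in opposite directions, each with no overlap between groups. Dhcr7 was called whichever library was left out, and Sc5d was not called without EC-KO 1 (0.0647), FL 1 (0.0576) or FL 3 (0.0700).

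Between Cyp51 and Sc5d lie 5 members that did not pass the test. They were the sterol reductase Tm7sf2 (-0.65, adjusted p = 0.106), the methylsterol oxidase Msmo1 (0.35, 0.180), the dehydrogenase Nsdhl (-0.22, 0.422), the ketosteroid reductase Hsd17b7 (0.45, 0.131) and the sterol isomerase Ebp (-0.04, 0.904). Tm7sf2 was the least abundant enzyme by CPM, at 2.54, 2.63 and 2.29 in EC-KO against 3.64, 3.06 and 5.02 in FL, and the groups did not overlap. It shares 532 exon bases (12.1% of its length) with Vps51 on the same strand, so some of its reads cannot be assigned. Ebp was at 17.2 to 28.6 CPM in EC-KO and 23.4 to 23.9 CPM in FL, and its sign was positive with upper-quartile (0.032) and library-size scaling (0.033).

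**Figure D3:**
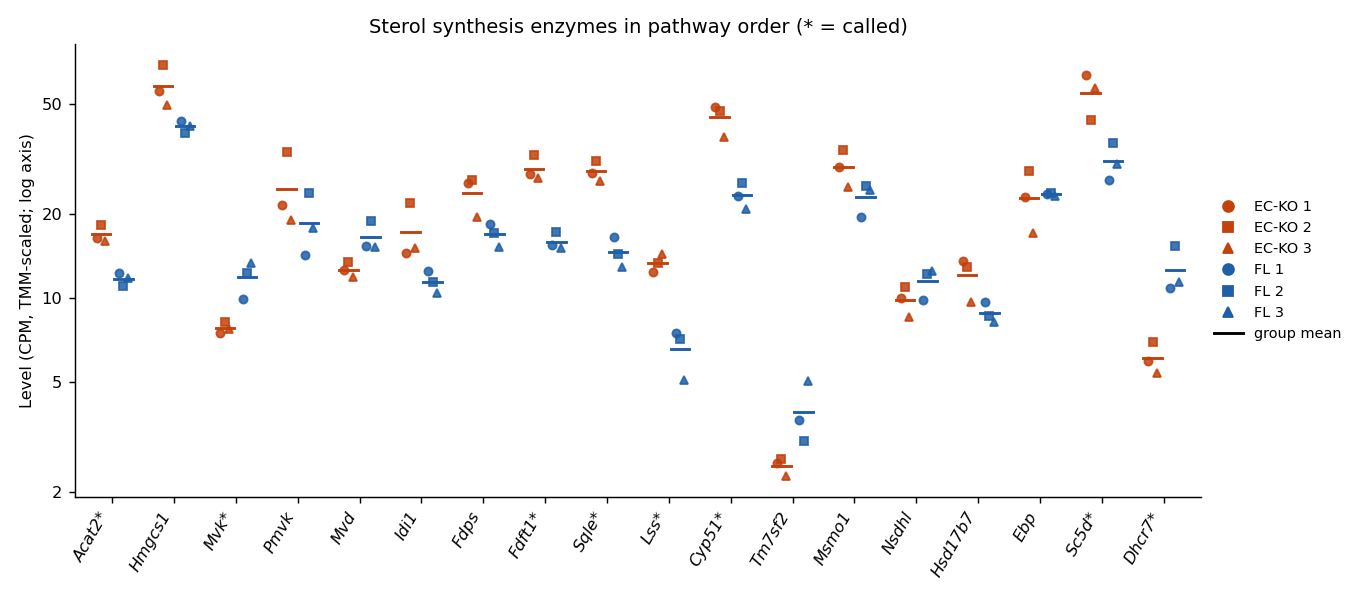
Level (CPM, log axis) of the 18 sterol synthesis enzymes in pathway order, with EC-KO left of FL; points are libraries, bars are group means and asterisks mark called genes. Fdft1, Sqle, Lss and Cyp51 stood side by side at 12.4 CPM or more in each EC-KO library and were higher than in FL, whereas Mvk and Dhcr7 were lower than in FL.

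Within a library, the ratio of an early to a late post-lanosterol enzyme does not depend on library scaling. The ratio of Cyp51 to Dhcr7 in counts per kb of exon was 10.8, 8.90 and 9.31 in EC-KO 1, 2 and 3, against 2.81, 2.22 and 2.42 in FL 1, 2 and 3. The groups did not overlap, and the pair was chosen after its values had been seen, so no test is given.

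In CPM per kb of exon (FPKM, which allows levels of different genes to be compared), the enzymes spanned more than an order of magnitude. In EC-KO they ran from 14.4 FPKM for Pmvk and 12.6 FPKM for Hmgcs1 to 1.05 FPKM for Dhcr7 and 0.565 FPKM for Tm7sf2. In FL they ran from 10.9 FPKM for Pmvk and 10.2 FPKM for Ebp to 0.887 FPKM for Tm7sf2 and 0.608 FPKM for Lss. Among neighbours in this order, 13 of 17 pairs had overlapping library ranges in EC-KO and 13 of 17 in FL, so much of the order is not resolved. In rank by FPKM, Fdft1 was number 6 of the 18 in EC-KO and number 11 in FL. Cyp51 was number 4 in EC-KO and number 6 in FL, and Dhcr7 number 17 in EC-KO and number 15 in FL. The exon length in the table covers all annotated exons, which for Lss came to 10787 bases and lowers its FPKM.

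The genes for the SREBP precursors and for INSIG1 were higher in EC-KO, while the carrier gene Scap was not called. Of the 6 regulators 3 were called higher and 1 lower, beside 13.5% of all genes tested in each direction, with a median log2 fold change of 0.38. Srebf1 stood at 108, 90.5 and 108 CPM in EC-KO 1, 2 and 3, against 64.8, 56.9 and 59.3 CPM in FL 1, 2 and 3 (0.76 ± 0.15 SE, adjusted p = 0.00750 in edgeR). Srebf2 stood at 238, 237 and 247 CPM in EC-KO, against 171, 146 and 139 CPM in FL (0.66 ± 0.15 SE, adjusted p = 0.0142). Both precursors had groups that did not overlap, and Srebf1 was called whichever library was left out. Srebf2 was not called without FL 2 (0.0745) or FL 3 (0.0878). The ratio of Srebf1 to Srebf2 in counts per kb was 0.579, 0.486 and 0.557 in EC-KO 1, 2 and 3, against 0.482, 0.499 and 0.543 in FL 1, 2 and 3. These ratios overlapped, with a difference of 0.09 in log2 ratio (exact permutation test, two-sided, p = 0.40, adjusted over 5 pairs 0.50).

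The INSIG genes, whose products retain SCAP, stood apart from each other. Insig1, itself a target of SREBP, stood at 124, 111 and 115 CPM in EC-KO 1, 2 and 3, against 69.5, 80.4 and 61.5 CPM in FL 1, 2 and 3 (0.73 ± 0.16 SE, adjusted p = 0.0107 in edgeR). Insig2 was at 16.6, 21.4 and 18.2 CPM in EC-KO, against 21.1, 23.6 and 28.2 CPM in FL (-0.37 ± 0.18 SE, adjusted p = 0.158), with overlapping groups. Without EC-KO 2 it was called lower (-0.51, adjusted p = 0.0468), and Insig1 was not called without FL 3 (0.0681). The ratio of Insig1 to Insig2 in counts per kb was 8.36, 5.82 and 7.10 in EC-KO, against 3.70, 3.83 and 2.45 in FL. Every EC-KO ratio lay above every FL ratio, and the difference in log2 ratio was 1.11 (exact permutation test, two-sided, p = 0.10, the smallest that 3 against 3 allows, adjusted 0.167).

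Stard4, a carrier that moves cholesterol between membranes, stood at 24.9, 29.7 and 26.7 CPM in EC-KO 1, 2 and 3, against 37.5, 35.3 and 41.8 CPM in FL 1, 2 and 3 (-0.49 ± 0.16 SE, adjusted p = 0.0447 in edgeR). Its groups did not overlap, but it was called in 1 of the 6 fits that left out a library, that without EC-KO 2 (0.0124), and lay at 0.0760 to 0.147 in the others. It was not called with upper-quartile (0.0735) or library-size scaling (0.0792) or without the filter (0.0734). Scap was at 47.5 to 52.9 CPM in EC-KO and 46.3 to 49.2 CPM in FL (0.10 ± 0.14 SE, adjusted p = 0.621). Some 13.2% of its exon bases are shared with an antisense transcript of low count, 5830462I19Rik.

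Fatty acid synthase and the desaturase gene Scd1 showed the largest rises of the set, and the citrate lyase gene before them in the route was not called. Of the 4 genes 3 were called higher and the other was not called, beside 13.5% of all genes tested called higher, with a median log2 fold change of 1.22. Fasn (ENSMUSG00000025153, chromosome 11), which builds palmitate, stood at 204, 208 and 228 CPM in EC-KO 1, 2 and 3, against 70.7, 69.9 and 58.0 CPM in FL 1, 2 and 3 (1.69 ± 0.16 SE, adjusted p = 0.000443 in edgeR). The 3 libraries of each group lay close together, and the rise was 3.22 times. It remained called whichever library was left out (1.57 to 1.72). Acly, which makes cytosolic acetyl-CoA from citrate, was at 162, 180 and 179 CPM in EC-KO, against 163, 192 and 182 CPM in FL (-0.04 ± 0.15 SE, adjusted p = 0.852). Its groups overlapped, and its sign was positive with upper-quartile (0.032) and library-size scaling (0.044). The ratio of Fasn to Acly in counts per kb was 0.607, 0.557 and 0.614 in EC-KO 1, 2 and 3, against 0.209, 0.176 and 0.153 in FL 1, 2 and 3. This pair, too, was chosen after its values had been seen and has no test.

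Scd1 (ENSMUSG00000037071), a desaturase that makes oleate-type fatty acids, was the most abundant member by FPKM in both groups. It stood at 1195, 1079 and 1542 CPM in EC-KO 1, 2 and 3, against 505, 324 and 229 CPM in FL 1, 2 and 3 (1.85 ± 0.30 SE, adjusted p = 0.00306 in edgeR), a rise of 3.61 times. FL 1, the highest FL library, also had the highest epithelial marker sum of its group (4595 CPM), whereas EC-KO 3, the highest EC-KO library, had the lowest of its group (11239 CPM). The part of epithelial cells, which express Scd1 and Fasn, was not tested, nor was that of lipid-laden cells. Scd2, its neighbour on chromosome 19 and known as the main form in the developing mouse and in brain, stood at 125, 157 and 122 CPM in EC-KO, against 75.4, 81.9 and 83.7 CPM in FL (0.74 ± 0.16 SE, adjusted p = 0.0106). Neither gene overlapped between groups, and Scd2 was not called without FL 3 (0.0504). The 2 genes are similar in sequence, so the assignment of some reads is uncertain. The ratio of Scd1 to Scd2 in counts per kb was 10.7, 7.67 and 14.2 in EC-KO, against 7.48, 4.42 and 3.05 in FL, so EC-KO 2 and FL 1 nearly met. The difference in log2 ratio was 1.18 (exact permutation test, two-sided, p = 0.10, the smallest possible, adjusted 0.167), and it was 0.87 to 1.52 with any library left out.

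Of the LXR branch, the export pump gene Abca1 fell, and the receptor genes were not called. Of the 5 genes 1 was called lower and 4 were not called, beside 13.5% of all genes tested in each direction, with a median log2 fold change of -0.04. Abca1, which loads cholesterol onto apolipoproteins, stood at 163, 121 and 170 CPM in EC-KO 1, 2 and 3, against 253, 305 and 212 CPM in FL 1, 2 and 3 (-0.76 ± 0.20 SE, adjusted p = 0.0231 in edgeR). Its groups did not overlap, but the call was lost without EC-KO 1 (0.0589) or FL 2 (0.0954) and with library-size scaling (0.0506). Macrophage markers, whose cells express Abca1, were lower in the same libraries (sums of 2510 to 3553 CPM in EC-KO against 6058 to 9958 CPM in FL), and their part was not tested. Abcg1, the pump that passes cholesterol to HDL particles, was at 248, 135 and 237 CPM in EC-KO, against 135, 214 and 133 CPM in FL (0.36 ± 0.28 SE, adjusted p = 0.356). EC-KO 2 matched the low FL libraries and FL 2 came near the high EC-KO libraries, so the groups overlapped.

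The ratio of Abca1 to Abcg1 in counts per kb was 0.463, 0.634 and 0.503 in EC-KO 1, 2 and 3, against 1.32, 1.00 and 1.12 in FL 1, 2 and 3. Abcg1 thus exceeded Abca1 in each EC-KO library, while they were close to even in FL. The difference in log2 ratio was -1.11, with no overlap (exact permutation test, two-sided, p = 0.10, the smallest possible, adjusted 0.167), and it kept its sign with any library left out.

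Nr1h2, which encodes the widely expressed receptor LXR-beta, was at 151, 124 and 150 CPM in EC-KO, against 153, 138 and 146 CPM in FL (-0.04 ± 0.15 SE, adjusted p = 0.876), and its sign was positive with upper-quartile (0.037) and library-size scaling (0.056). Nr1h3, which encodes LXR-alpha of macrophages and liver, was at 10.6, 24.4 and 10.0 CPM in EC-KO, against 15.6, 17.8 and 12.9 CPM in FL (-0.05 ± 0.34 SE, adjusted p = 0.934). EC-KO 2 was its highest library and EC-KO 1 and 3 its lowest. Without EC-KO 2 it was called lower (-0.62, adjusted p = 0.0343), and its sign was positive with upper-quartile (0.023) and library-size scaling (0.0085). EC-KO 2 had the highest endothelial, epithelial, fibroblast and macrophage marker sums of its group. Its macrophage sum was 3553 CPM, against 6058 to 9958 CPM in FL. The part of these cell types in the level of Nr1h3 was not tested. The ratio of Nr1h3 to Nr1h2 in counts per kb was 0.0934, 0.263 and 0.0890 in EC-KO, against 0.136, 0.173 and 0.118 in FL, and overlapped between groups (exact permutation test, two-sided, p = 0.90, adjusted 0.90). Mylip, which encodes a ubiquitin ligase that degrades lipoprotein receptors, was at 73.0 to 80.9 CPM in EC-KO and 64.6 to 78.2 CPM in FL (0.14 ± 0.15 SE, adjusted p = 0.498).

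**Figure D4:**
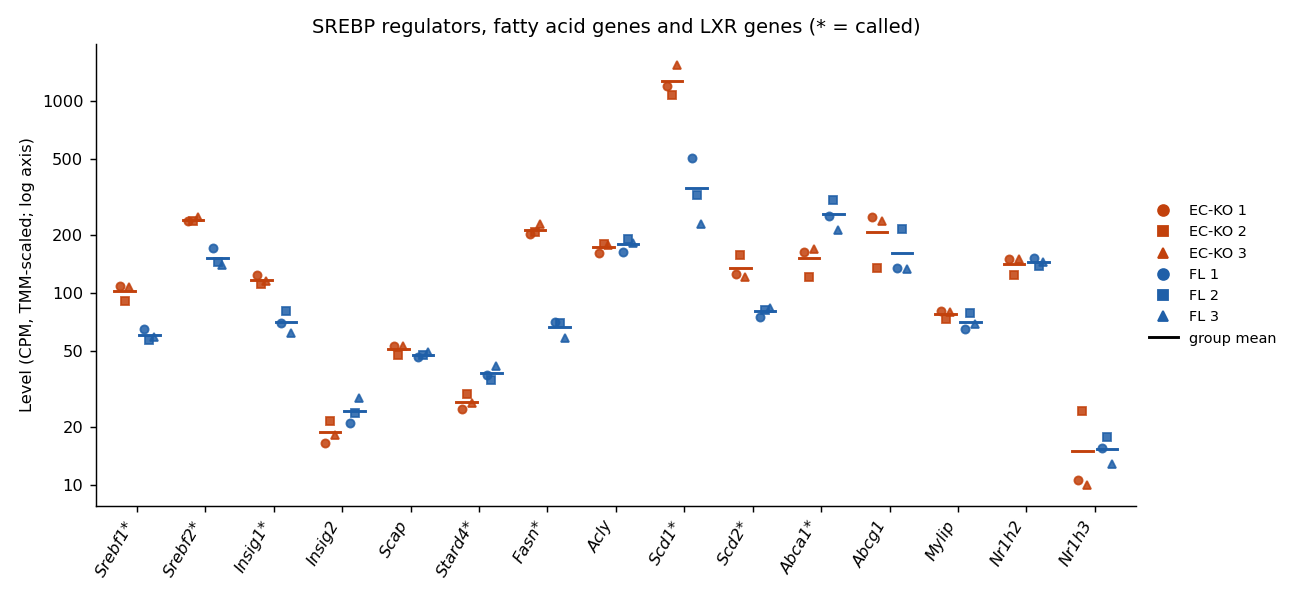
Level (CPM, log axis) of the SREBP regulators, fatty acid genes and LXR genes, with EC-KO left of FL; points are libraries, bars are group means and asterisks mark called genes. Scd1 and Fasn were separated most widely (1079 to 1542 against 229 to 505 CPM for Scd1), and Nr1h3 in EC-KO was split by EC-KO 2 at 24.4 CPM.

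**Figure D5:**
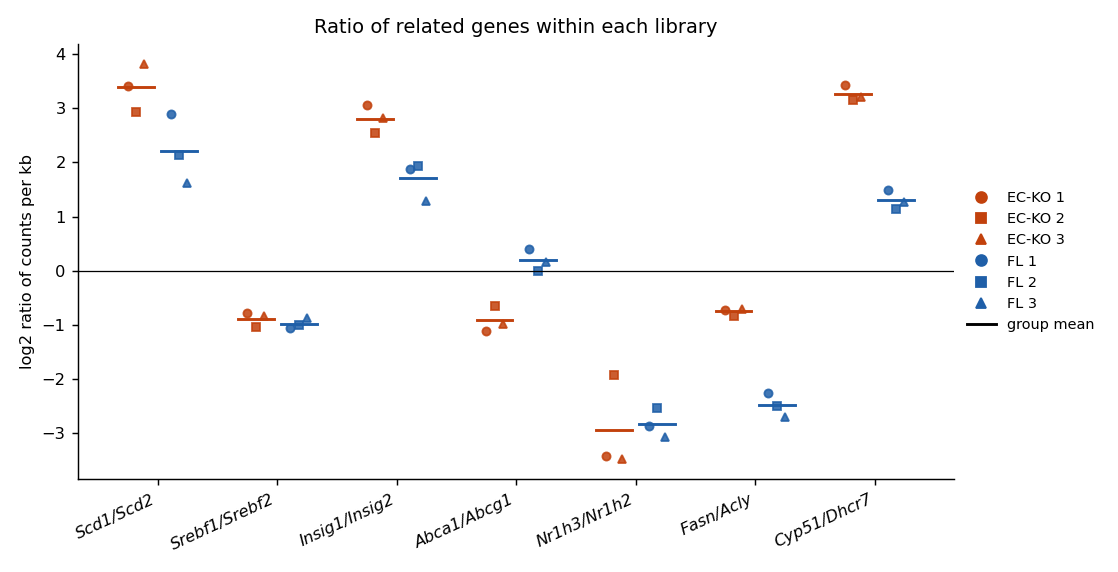
Log2 ratio of counts per kb between related genes within each library, with EC-KO left of FL; points are libraries and bars are group means. Ratios of Scd1 to Scd2 and Insig1 to Insig2 were higher and that of Abca1 to Abcg1 lower in every EC-KO library than in any FL library, while Srebf1 to Srebf2 and Nr1h3 to Nr1h2 overlapped.

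Wider lists of genes around these pathways are given beside the share over all genes tested, of which 27.1% were called, 13.5% higher and 13.5% lower. Of 21 other genes of sterol synthesis, uptake and SREBP processing, 2 were called higher and 3 lower (median -0.18), a share near that over all genes. Vldlr, a lipoprotein receptor, stood at 10.3 ± 2.09 CPM in EC-KO and 32.1 ± 7.54 CPM in FL (SD, n = 3 each; -1.65, adjusted p = 0.00180 in edgeR). Mbtps2, the intramembrane protease that releases SREBP, stood at 8.52 ± 1.14 CPM in EC-KO and 17.9 ± 2.65 CPM in FL (-1.07, adjusted p = 0.00586 in edgeR). Both were called whichever library was left out. The rise of Nfyc, a subunit of the SREBP partner NF-Y, to 46.8 CPM in EC-KO, against 27.8 CPM in FL (0.75, adjusted p = 0.0134), was lost without EC-KO 1, FL 2 or FL 3 (at most 0.0681).

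Of 14 genes of the isoprenoid branch that does not lead to sterols, 2 were called higher and 2 lower (median -0.15), again near the 27.1% over all genes. Pdss1, for the side chain of coenzyme Q, was at 0.98 (adjusted p = 0.0106 in edgeR, 0.0528 without FL 2). Of 20 tested genes of sterol trafficking, storage and breakdown, 2 were called higher and 4 lower (median 0.00), also near the 27.1% over all genes. Lipa, the lysosomal acid lipase, stood at 60.4 ± 9.12 CPM in EC-KO and 161 ± 27.0 CPM in FL (-1.41, adjusted p = 0.00150 in edgeR), and Nceh1, which hydrolyses cholesterol esters, was at -1.22 (0.00297). Both are also expressed by macrophages, whose markers were lower in the same libraries, and their part was not tested. Npc2, the lysosomal sterol carrier, was called higher (0.85, adjusted p = 0.0189), though not without FL 2 or FL 3 (at most 0.0938).

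Of 19 other tested genes of fatty acid synthesis, 3 were called higher and 2 lower (median 0.36), near the 27.1% over all genes. Mlxipl, which encodes the carbohydrate-responsive factor ChREBP, stood at 2.22, 2.16 and 2.63 CPM in EC-KO, against 0.379, 0.672 and 0.853 CPM in FL (1.86, adjusted p = 0.00772 in edgeR). Elovl5, an elongase of polyunsaturated fatty acids, stood at 166 ± 9.39 CPM in EC-KO and 378 ± 46.7 CPM in FL (SD, n = 3 each; -1.19, adjusted p = 0.00174 in edgeR). Acacb, the mitochondrial acetyl-CoA carboxylase, was at -1.08 (adjusted p = 0.0227), and was not called without EC-KO 1 or FL 3 (at most 0.0871). Of 15 tested LXR partners and targets outside the set, 5 were called lower and 10 were not called (median -0.05), beside 13.5% of all genes tested called lower. The 3 with the smallest p were the phosphodiesterase Smpdl3a (-1.25), the lipoprotein lipase Lpl (-1.85) and the partner receptor Rxra (-1.30). These 3 were called whichever library was left out. The other 2 were each called in 2 of the 6 fits that left out a library (adjusted p at most 0.0945 in edgeR). Macrophage markers (2510 to 3553 CPM in EC-KO against 6058 to 9958 CPM in FL) and endothelial markers (4411 to 8845 CPM in EC-KO against 11347 to 15771 CPM in FL) were lower in the same libraries, and their part in these falls was not tested.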

How the data were processed

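Raw counts per Ensembl gene, deposited by the authors in the layout of featureCounts per the file headers, were used for 6 libraries. Per the submitters' processing notes, the tools include STAR (2.7.10b) and featureCounts (2.0.3), with build mm10. No source used here gives the annotation release or strandedness. A deposited summary of alignments, also counts, showed 9.10% to 11.5% multimapping alignments set aside per library. The table holds 2 further per-sample columns that match no label and were not used. Of 56941 identifiers 51948 had a symbol in GENCODE M21, and 1441 (2.77%) had the same start and end there, so the build of the table is unresolved and its coordinates are not printed.

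Counts were analysed with edgeR 4.0.16 in R 4.3.3 (filterByExpr, TMM, robust quasi-likelihood test of EC-KO against FL, no covariates, two-sided, Benjamini-Hochberg over 18562 genes, threshold 0.05). SE is the absolute log2 fold change over the square root of F. FPKM divides CPM by exon length. Ratios of related genes were compared with exact permutation tests (scipy 1.17.1). Alternatives used DESeq2 1.42.0 and limma 3.58.1, other scalings, filters and thresholds, a replicate block, glmTreat and leaving out libraries. All 33 members are named whatever their result. From the wider lists, up to 3 called genes per direction were eligible by smallest p, and some are given as counts only. Members and lists were chosen with earlier results of these data known. The fit was tested on 3 simulated sets with 200 changed genes each. Changes of 1.5, 2 and 4 times were called in 7.46%, 44.3% and 94.4% of changed genes, and 4.90% of calls were false. In the real data 5029 of 18562 genes were called, many more than were changed in a simulated set. The sets also held no shift in cell types. Recovery and false calls in the real data may therefore differ from these shares. Precision is limited by 3 libraries per group and a common biological coefficient of variation of 25.5%.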

Additional observations from a re-analysis of the deposited data

How the results depend on the processing

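Among the 33 members, 33 of 33 kept direction and call with RLE scaling, limma-voom and a fit that was not robust. Upper-quartile and library-size scaling called 15 members higher each, and 2 and 1 lower. Sterol enzymes called lower numbered 1 instead of 2 with upper-quartile scaling, library-size scaling, no filter, the replicate block and an adjusted p of 0.01. SREBP regulators called lower numbered 0 instead of 1 under those 5 settings. The LXR gene called lower (Abca1) was not called, 0 instead of 1, with library-size scaling, the replicate block and an adjusted p of 0.01. At that threshold SREBP regulators called higher numbered 1 instead of 3, and of all genes 977 were called higher and 1038 lower. Against a change of 1.5 times, the sterol enzymes called numbered 0 in each direction, SREBP regulators 0 in each direction, LXR genes 0 and all genes 1017 higher and 882 lower.

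No label says whether the replicate numbers pair the samples. Deviations of same-numbered libraries correlated at 0.05, 0.07 and -0.18 across genes, which with 3 libraries per group cannot decide it. With the replicate block 11 members were called higher and 1 lower, and 3848 genes in all. The members whose call was lost under the block were Acat2 (edgeR adjusted p = 0.113), Mvk (0.0984), Stard4 (0.105) and Abca1 (0.0555).

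Over fits that left out a library, all genes called ranged from 1169 to 3009 higher and 1314 to 3731 lower, sterol enzymes from 4 to 5 higher and 1 to 2 lower, SREBP regulators from 1 to 3 higher and 0 to 2 lower, and LXR genes from 0 to 2 lower. Log2 fold changes ranged from -0.26 to 0.12 for Ebp, -0.14 to 0.00099 for Acly, -0.10 to 0.020 for Nr1h2 and -0.62 to 0.17 for Nr1h3, and the log2 ratio of Nr1h3 to Nr1h2 differed by -0.63 to 0.16. Without FL 1 and EC-KO 2 together, chosen after seeing the data, Pmvk was at -0.066 and Nr1h2 at 0.054, 2 SREBP regulators and 2 LXR genes were called lower, and over all genes 3480 were called higher and 4074 lower. With upper-quartile and library-size scaling the values were 0.032 and 0.033 for Ebp, 0.032 and 0.044 for Acly, 0.037 and 0.056 for Nr1h2 and 0.023 and 0.0085 for Nr1h3. The cause of these differences was not tested. With 3 libraries per group, members that missed the threshold are not shown to be equal.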
